A study of Mus musculus with 2 samples.

Results

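Oxidative phosphorylation genes were taken by name: every row whose symbol starts with Nduf, Sdh, Uqcr, Cox4, Cox5, Cox6, Cox7, Cox8 or Atp5, together with the 13 protein-coding genes of the mitochondrial genome, at a minimum of 50 unique molecular identifiers (UMIs, 1 per captured transcript) over both libraries. The names matched 110 of 31053 features and 104 reached the minimum, 91 of them nuclear and 13 mitochondrial. The 6 rows below it were Cox7b2 and Cox8b with 0 UMIs, Cox8c and a second Atp5o row with 1 each, Ndufa4l2 with 12 and Cox4i2 with 23. Just above the minimum stood Cox6b2 with 95 and Cox7a1 with 152.

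By 3 prime droplet sequencing the study profiled innate lymphoid cells (ILCs), sorted from the lamina propria of the small intestine in C57BL/6 mice. The WT library came from a pool of 4 wild-type mice and the Zfp36_KO library (the knockout) from a pool of 4 Zfp36-/- mice, a deletion not restricted to ILCs. The labels give no age and no further treatment. Zfp36 encodes tristetraprolin, an RNA-binding protein that speeds the decay of transcripts with AU-rich elements. Each pool is 1 measurement, so no test between genotypes was possible; higher and lower describe these 2 libraries, and every interval covers counting error only, not the spread between mice.

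Oxidative phosphorylation burns the electrons of NADH and succinate in the inner mitochondrial membrane. Complex I (NADH dehydrogenase) and complex II (succinate dehydrogenase) feed electrons to coenzyme Q, complex III passes them to cytochrome c, complex IV (cytochrome c oxidase) hands them to oxygen, and complex V (ATP synthase) uses the resulting proton gradient to make ATP. Most subunits are encoded in the nucleus, translated in the cytosol and imported, but the hydrophobic cores of complexes I, III, IV and V contain subunits that the mitochondrion transcribes and translates itself, so each of these complexes needs both genomes. Complex II is wholly nuclear. Lymphocytes draw on respiration and on glycolysis to different degrees in different states.

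Of 3593 barcodes in WT (24721524 UMIs) 3359 cells were kept, with a median of 5291 UMIs, and of 3522 in the knockout (27733804 UMIs) 3334, with a median of 5336.5. Only 2 barcodes were shared. Cells were assigned to a class with at least 3 UMIs of its marker panel and at least 2 times those of any other panel. No gate was met by 710 WT and 743 knockout cells. In WT and knockout the gates held 829 and 1071 ILC3-like, 450 and 758 ILC2-like, 180 and 180 ILC1/NK-like and 132 and 169 B/plasma-like cells, the 4 classes with at least 100 cells in each library. T-cell-like cells numbered 968 and 23 and myeloid-like cells 90 and 390, so the 2 sorts differed in what else they held. Gata3, the ILC2 transcription factor, stood at 1217 and 1102 CPM (UMIs scaled to the UMI total of the class) in ILC2-like and at 138 and 127 CPM in ILC3-like cells. Il23r, the interleukin-23 receptor gene of ILC3s, stood at 116 and 186 CPM in ILC3-like cells and had 1 and 3 UMIs in ILC2-like cells. ILC1/NK-like cells carried Ncr1 at 915 and 1135 CPM but Eomes, which marks NK cells, at 34.0 and 2.31 CPM. The B/plasma-like class was led by Jchain at 67709 and 81675 CPM. Zfp36 itself, in the class order ILC3-like, ILC2-like, ILC1/NK-like, stood at 1132, 734 and 758 CPM in WT and at 328, 327 and 313 CPM in the knockout; the labels do not say which part of the gene is deleted. Y-linked UMIs were found in 4 WT and 534 knockout cells. Of these, 0 and 448 had no Xist UMI, so the pools differed in the sex of their cells as well as in genotype. The sums, counts and named members were also computed without cells with Y-linked UMIs, which leaves in male cells where none was captured.

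Sequences are shown for the members on which the results turn. The first sequences are overlaps of mitochondrial genes that lie on shared transcripts. In every compared class mt-Atp8 and mt-Atp6 gave unequal ratios, while mt-Nd4l and mt-Nd4 did so above all in ILC3-like cells. The genes mt-Atp8 and mt-Atp6 share 43 bases, at chrM:7927-7969, and mt-Nd4l and mt-Nd4 share 7 bases, at chrM:10167-10173 (GENCODE M21 coordinates, build mm10, plus strand). A tag inside an overlap belongs to both genes.
mt-Atp8 and mt-Atp6: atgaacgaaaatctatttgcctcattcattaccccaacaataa
mt-Nd4l and mt-Nd4: atgctaa

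The promoters below are those of 3 of the 5 nuclear members that were past the limit used here, a log2 ratio of 0.32 either way, with an interval off 0 in all 3 ILC classes, each of them lower in the knockout. They encode small membrane and stalk subunits of complex V. Each window runs from 250 bases before to 50 bases after the RefSeq start (RefSeq, GRCm38.p6, minus strand), and capitals mark matches on either strand to GCGCATGC (the NRF1 core), CCGGAAG (the core bound by ETS factors such as GABP) or AAGATGG (the YY1 core), the motifs best known from promoters of respiratory genes. In Atp5k (chr5:108434350-108434649) the first run in capitals matches the NRF1 core on both strands and the next is an ETS core. Atp5h (chr11:115419870-115420169) has an ETS core and Atp5j2 (chr5:145191492-145191791) a YY1 core. The windows of the other 2, Ndufab1 and Atp5b, hold none of these letters.
Atp5k: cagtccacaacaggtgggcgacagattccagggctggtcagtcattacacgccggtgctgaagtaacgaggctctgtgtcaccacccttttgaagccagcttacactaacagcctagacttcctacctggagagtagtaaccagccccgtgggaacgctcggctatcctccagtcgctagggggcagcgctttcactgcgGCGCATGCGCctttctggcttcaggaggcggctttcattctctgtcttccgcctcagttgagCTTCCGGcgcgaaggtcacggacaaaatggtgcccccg
Atp5h: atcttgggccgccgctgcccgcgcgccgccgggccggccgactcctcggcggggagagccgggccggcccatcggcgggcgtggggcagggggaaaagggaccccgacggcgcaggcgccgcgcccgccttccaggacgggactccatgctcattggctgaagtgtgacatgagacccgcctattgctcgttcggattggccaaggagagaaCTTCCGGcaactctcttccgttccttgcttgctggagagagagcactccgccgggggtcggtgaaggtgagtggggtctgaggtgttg
Atp5j2: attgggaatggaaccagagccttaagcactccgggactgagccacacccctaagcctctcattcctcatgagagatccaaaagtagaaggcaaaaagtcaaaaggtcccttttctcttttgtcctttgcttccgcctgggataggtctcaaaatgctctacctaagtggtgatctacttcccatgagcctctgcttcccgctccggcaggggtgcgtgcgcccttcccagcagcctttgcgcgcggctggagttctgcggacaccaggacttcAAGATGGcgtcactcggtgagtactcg

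Of the 91 nuclear members, 78 matched a RefSeq promoter by symbol or synonym. The NRF1 core was present in 12 of them (15.4%), against 6.83% of the 7565 matched genes tested in ILC3-like cells and 3.05% of all 27025 genes of the table. The ETS core was present in 21 (26.9%), against 23.7% and 9.93%, and the YY1 core in 12 (15.4%), against 9.31% and 7.28%. At least 1 of the 3 was present in 38 members (48.7%), 35.3% of tested genes and 18.6% of all genes. Against genes tested in the same cells the members therefore differed most in the NRF1 core and least in the ETS core. A match is a run of letters, not a site shown to be bound.

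Summed over their members, the nuclear genes were lower in the knockout in every one of the 4 compared classes, while the mitochondrial genes were higher. In ILC3-like cells the nuclear sum was 19636 CPM (95% interval 19498 to 19775) in WT and 15843 CPM (15727 to 15961) in the knockout, a log2 ratio of knockout over WT of -0.31. The mitochondrial sum was 54378 CPM (54148 to 54610) and 58925 CPM (58700 to 59151), a ratio of 0.12. In ILC2-like cells the nuclear sum went from 17802 CPM in WT to 15500 CPM in the knockout (-0.20) and the mitochondrial sum from 52580 to 60855 CPM (0.21). ILC1/NK-like cells had nuclear sums of 18294 and 15918 CPM (-0.20) and mitochondrial sums of 39561 and 42869 CPM (0.12). In B/plasma-like cells, where immunoglobulin transcripts take a large part of all UMIs, the nuclear sums were 7708 and 7207 CPM (-0.10) and the mitochondrial sums 26105 and 34121 CPM (0.39). The intervals of the 2 libraries did not overlap for either sum in any of these classes.

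CPM ratios depend on what else the cells contain: the median ratio over all genes tested was 0.16 in ILC3-like, 0.17 in ILC2-like, 0.14 in ILC1/NK-like and 0.24 in B/plasma-like cells. Relative to that median the nuclear sum was -0.47, -0.37, -0.35 and -0.34 in these classes, and the mitochondrial sum 0.04 in ILC2-like and 0.14 in B/plasma-like cells but -0.05 in ILC3-like and -0.03 in ILC1/NK-like cells, where its direction turned. The quotient of mitochondrial over nuclear UMIs needs no such scale. Mitochondrial genes gave 73.5% of the oxidative phosphorylation UMIs of WT ILC3-like cells and 78.8% in the knockout, 74.7% and 79.7% in ILC2-like, 68.4% and 72.9% in ILC1/NK-like and 77.2% and 82.6% in B/plasma-like cells. On the log2 scale the quotient differed by 0.43, 0.41, 0.32 and 0.48. Myeloid-like cells, too few in WT for the comparison, had nuclear sums of 18598 and 18835 CPM and mitochondrial shares of 70.2% and 74.0%.

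The shift was not carried by a few cells. In the median ILC3-like cell, nuclear members took 1.91% of UMIs in WT (quartiles 1.72 to 2.14) and 1.54% in the knockout (1.35 to 1.76), and mitochondrial members 5.36% (4.63 to 6.33) and 5.97% (4.96 to 7.02). The medians for nuclear members were 1.69% and 1.49% in ILC2-like, 1.79% and 1.502% in ILC1/NK-like and 0.690% and 0.657% in B/plasma-like cells; for mitochondrial members they were 5.11% and 6.09%, 3.63% and 4.25%, and 2.64% and 3.33%. Knockout ILC3-like cells were shallower, with a median of 3742 UMIs against 4349. Within cells of 2000 to under 4000 UMIs the nuclear medians were 1.89% and 1.498%, from 4000 to under 8000 UMIs 1.92% and 1.62%, and at 8000 or more 1.94% and 1.51%. The mitochondrial medians in these bins were 5.58% and 6.28%, 5.30% and 5.85%, and 4.73% and 5.41%, but under 2000 UMIs the order turned, at 7.03% over 18 WT and 4.93% over 55 knockout cells. It turned also in ILC1/NK-like cells of 8000 UMIs or more, at 4.61% over 16 WT and 4.295% over 10 knockout cells. The nuclear order turned under 2000 UMIs in ILC2-like cells, at 1.34% over 5 WT and 1.43% over 6 knockout cells. In ILC1/NK-like cells of that depth the nuclear medians were 1.09% over 3 WT and 1.36% over 11 knockout cells.

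**Figure D1:**
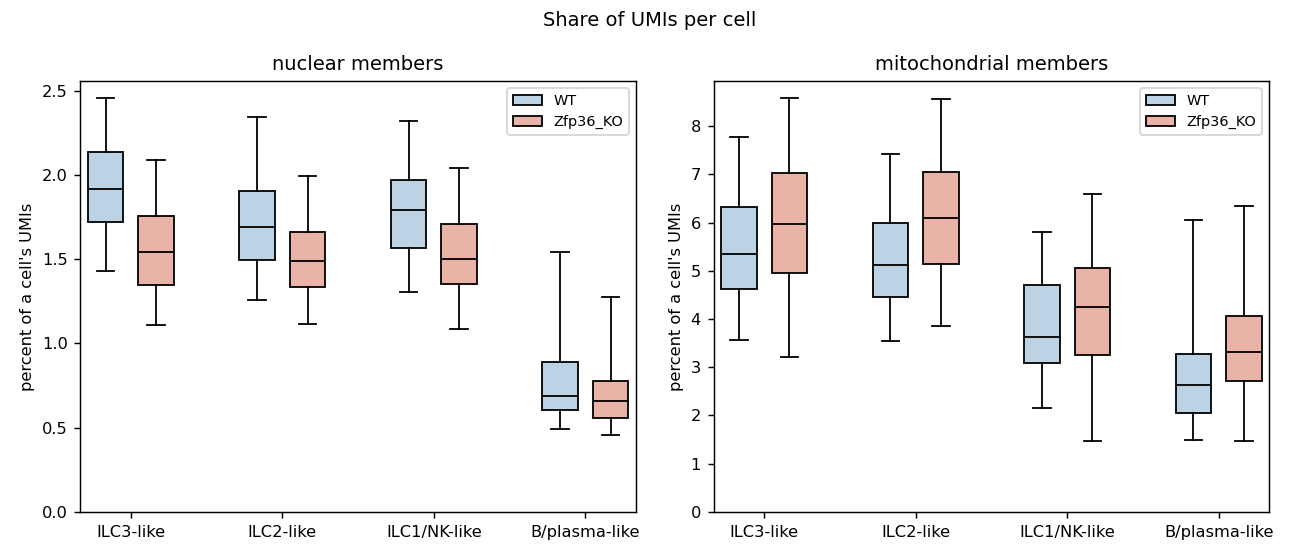
Percent of each cell's UMIs from the 91 nuclear members (left) and the 13 mitochondrial members (right), by class and library; boxes give quartiles and median over cells, whiskers the 5th and 95th percentiles. In ILC3-like cells the median nuclear share was 1.91% in WT and 1.54% in the knockout, with boxes that barely meet, and the mitochondrial boxes overlapped broadly.

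From cell to cell the 2 groups of genes were weakly related in ILCs. Spearman's rho between the nuclear and the mitochondrial share was 0.14 over 829 WT and 0.01 over 1071 knockout ILC3-like cells, 0.00 and -0.07 over 450 and 758 ILC2-like cells, and 0.05 and -0.15 over 180 and 180 ILC1/NK-like cells. In B/plasma-like cells it was 0.51 over 132 and 0.37 over 169 cells. These describe cells of 1 library each, which share its depth and composition; the shares also moved with depth. The rank correlation of the nuclear and the mitochondrial share with depth was -0.39 and -0.37 in WT and -0.12 and -0.16 in knockout B/plasma-like cells. In ILCs it ranged from 0.14 to 0.36 for the nuclear share, highest in WT ILC2-like cells, and from -0.12 to 0.20 for the mitochondrial share.

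Counting genes rather than UMIs gave the same direction for nuclear members. A gene was counted as higher or lower from a log2 ratio of 0.32 either way, among genes with at least 50 UMIs in the class. In ILC3-like cells 37 of 88 nuclear members were lower and 0 higher, where 34.9% of all 9416 genes were higher and 12.3% lower. For ILC2-like cells the counts were 20 lower and 2 higher of 88, against 10.1% lower and 36.3% higher of 8531 genes. ILC1/NK-like cells had 2 higher and 21 lower of 81, against 34.3% and 13% of 5262 genes, and B/plasma-like cells 2 higher and 10 lower of 83, against 43% and 11% of 6533 genes. The B/plasma-like share of lower members thus stood close to the background. Centred on the class median, 61, 53, 42 and 52 nuclear members were lower in the 4 classes, against 21.6%, 21.4%, 22.5% and 24.2% of all genes, and 0, 2, 1 and 0 were higher, against 21.7%, 22.7%, 23.7% and 25.9%. The differences were of modest size: at 1.5-fold 3, 1, 5 and 0 nuclear members were lower (3.41%, 1.14%, 6.17% and 0%), against 4.53%, 3.32%, 4.47% and 4.45% of all genes, so that at this size the members stood below the background in all classes but ILC1/NK-like cells.

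In all 3 ILC classes 57 of the 81 nuclear members tested in each had a ratio below 0, against 17.3% of all genes, and in all 4 compared classes 49 of 81, against 12.8%. Past that limit with an interval off 0 in all 3 ILC classes were 5 nuclear members, all lower: Ndufab1, Atp5b, Atp5h, Atp5j2 and Atp5k. Of all 5146 genes tested there, 1.88% were lower by that rule and 11.8% higher. Ndufab1 was the nuclear member that met it in all 4 compared classes, where 0.913% of 4712 genes were lower and 8.96% higher. By the same rule, mt-Atp8 was lower and mt-Nd4, mt-Nd4l, mt-Nd6 and mt-Co3 were higher in all 4.

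**Figure D2:**
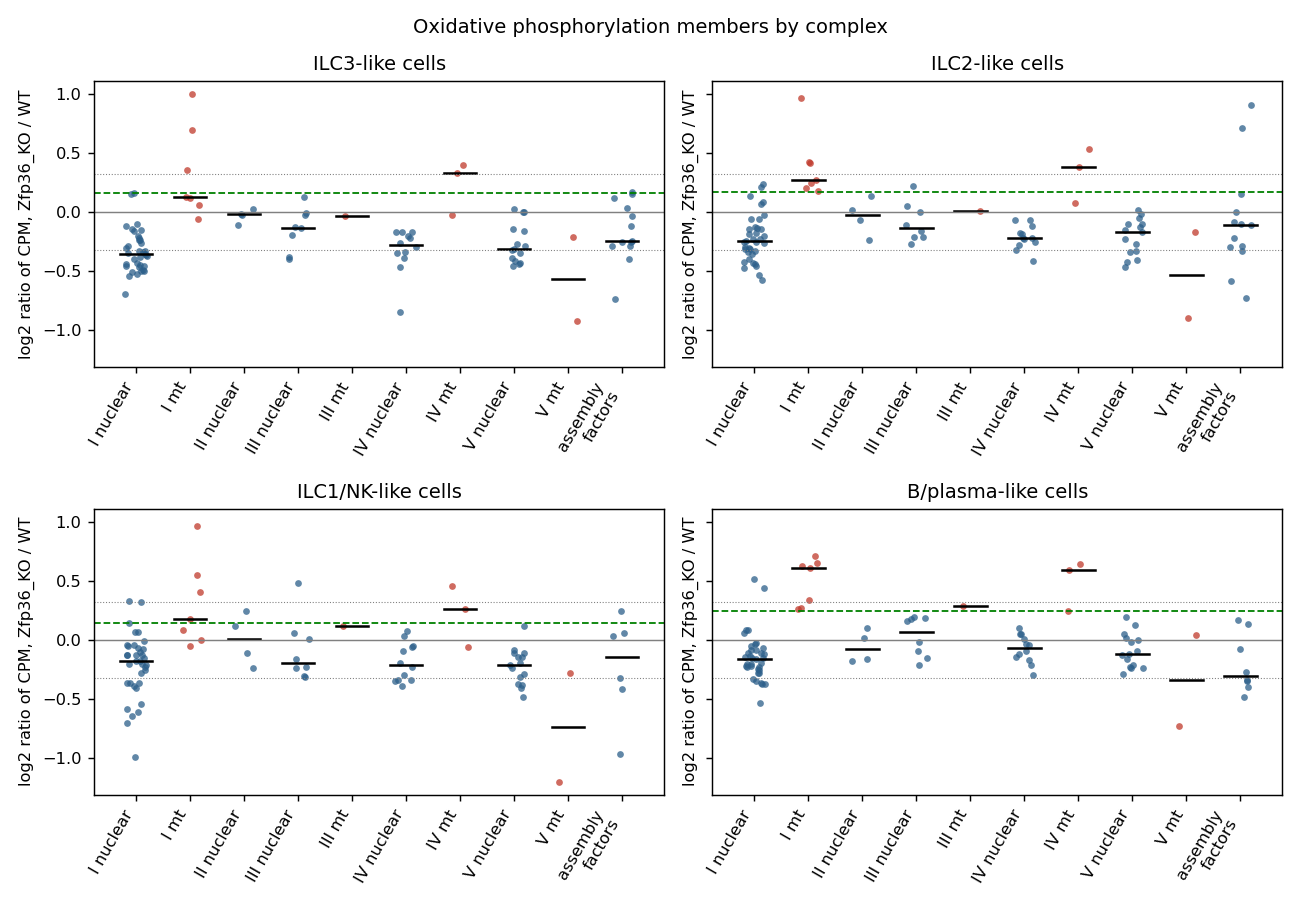
Log2 ratio of CPM, knockout over WT, for each tested member by complex and genome in 4 classes; bars are medians, dotted lines a log2 ratio of 0.32 either way and the dashed line the median of all genes tested. In ILC3-like cells nearly all nuclear members lie below the dashed line, at 0.16, whereas most mitochondrial members of complexes I and IV lie above 0; relative to the dashed line the mitochondrial sum turned to -0.05.

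Complex I has 36 nuclear subunits among the members, 7 of the catalytic core and 29 accessory. In ILC3-like cells their sum was 5845 CPM in WT and 4664 CPM in the knockout (-0.33), with core (-0.32) and accessory subunits (-0.33) nearly alike. The sum gave -0.21 in ILC2-like, -0.21 in ILC1/NK-like and -0.14 in B/plasma-like cells. Ndufab1, the mitochondrial acyl carrier protein, which also serves fatty acid and lipoate synthesis, stood at 145 and 103 CPM in ILC3-like (-0.50, -0.68 to -0.32), 122 and 91.3 CPM in ILC2-like (-0.42), 109 and 72.7 CPM in ILC1/NK-like (-0.58) and 58.3 and 44.9 CPM in B/plasma-like cells (-0.38). The knockout was lower each time, and the ILC1/NK-like value rests on 112 and 63 UMIs.

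Ndufa13 and Ndufa7 had the most UMIs of the nuclear complex I subunits in WT ILC3-like cells. Ndufa13 stood at 402 and 286 CPM there (-0.49), 352 and 280 CPM in ILC2-like (-0.33) and 375 and 324 CPM in ILC1/NK-like cells (-0.21). Ndufa7 stood at 307 and 240 CPM (-0.35), 222 and 202 CPM (-0.14) and 268 and 204 CPM (-0.39). Both were lower in the knockout in each ILC class, by sizes that varied between classes. The lowest ratios of a class included Ndufb4 in ILC2-like cells (103 and 69.3 CPM, -0.58, -0.81 to -0.35) and Ndufb2 (89.4 and 45.01 CPM, -0.99), Ndufa8 (117 and 71.6 CPM, -0.70) and the core subunit Ndufs3 (99.1 and 63.5 CPM, -0.64) in ILC1/NK-like cells. In ILC3-like cells these 4 had ratios of -0.43, -0.54, -0.34 and -0.36. The ILC1/NK-like values rest on few UMIs, 92 and 39 for Ndufb2 (-1.57 to -0.43), 120 and 62 for Ndufa8 (-1.17 to -0.25) and 102 and 55 for Ndufs3 (-1.14 to -0.16).

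Not all complex I genes were lower. Ndufs1, the largest core subunit, stood at 42.9 and 47.9 CPM in ILC3-like cells (0.16, -0.14 to 0.46), 37.8 and 44.6 CPM in ILC2-like (0.24), 33.0 and 41.6 CPM in ILC1/NK-like (0.33) and 10.3 and 14.8 CPM in B/plasma-like cells (0.52), each ILC interval spanning 0. Ndufa10 had ratios of 0.16, 0.21, 0.14 and 0.44. The assembly factor Ndufaf1, needed to build the membrane arm, was among the highest ratios in ILC2-like cells at 14.6 and 23.9 CPM (0.71; 44 and 111 UMIs, an interval that excludes 0), but stood at 20.2 and 21.95 CPM in ILC3-like cells (0.12, -0.32 to 0.57). Ndufs1 and Ndufa10 are named for this exception after their values were seen.

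Complex II differed little. Its sum was 397 CPM (378 to 418) in WT and 389 CPM (371 to 408) in knockout ILC3-like cells (-0.03), with overlapping intervals, and the ratios were -0.03, 0.06 and -0.08 in ILC2-like, ILC1/NK-like and B/plasma-like cells. The flavoprotein subunit Sdha stood at 148 and 147 CPM in ILC3-like cells (-0.01, -0.17 to 0.15) and the iron-sulphur subunit Sdhb at 97.3 and 95.6 CPM (-0.02, -0.23 to 0.18). The membrane anchors Sdhc and Sdhd stood at 56.7 and 57.8 CPM (0.03) and at 95.2 and 88.2 CPM (-0.11). In ILC2-like cells the 4 ratios were -0.07, 0.13, 0.02 and -0.23, and in ILC1/NK-like cells 0.25, -0.11, -0.24 and 0.12, with intervals that all span 0. In ILC1/NK-like cells the intervals of Sdhb (-0.59 to 0.37), Sdhc and Sdhd also held the -0.21 of the complex I sum, so a difference of that size was not detectable for these genes at this depth; that of Sdha (-0.14 to 0.64) did not hold it.

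Its assembly factor Sdhaf1, which helps to load iron-sulphur clusters into Sdhb, stood apart from the subunits. It was at 206 CPM in WT and 124 CPM in knockout ILC3-like cells (-0.73, -0.89 to -0.57) and at 108 and 65.2 CPM in ILC2-like cells (-0.72, -0.95 to -0.49). ILC1/NK-like cells had 91.3 and 108 CPM (0.25, -0.18 to 0.68) and B/plasma-like cells 16.6 and 11.8 CPM (-0.49). The other factors Sdhaf2, Sdhaf3 and Sdhaf4 gave -0.03, -0.12 and -0.40 in ILC3-like cells. The 13 assembly factors of all complexes summed to ratios of -0.30, -0.19, -0.12 and -0.19 in the 4 classes.

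Complex III nuclear subunits summed to 1820 and 1599 CPM in ILC3-like cells (-0.19), and to -0.15, -0.11 and 0.02 in ILC2-like, ILC1/NK-like and B/plasma-like cells. Uqcrh, the hinge protein that docks cytochrome c1, stood at 485 and 373 CPM in ILC3-like (-0.38), 597 and 495 CPM in ILC2-like (-0.27) and 574 and 515 CPM in ILC1/NK-like cells (-0.16, -0.34 to 0.02). Uqcrb, which helps bind coenzyme Q, gave 285 and 280 CPM (-0.03, -0.14 to 0.09), 222 and 206 CPM (-0.10) and 271 and 283 CPM (0.06), without a difference beyond counting error. The Rieske iron-sulphur protein Uqcrfs1 stood at 121 and 121 CPM in ILC3-like and 119 and 119 CPM in ILC2-like cells (both 0.00). In ILC1/NK-like cells it was at 110 and 154 CPM (0.48, 0.11 to 0.86), among the highest ratios of that class.

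Complex IV gave the lowest ratio of the nuclear sums in ILC3-like cells: 5610 CPM in WT and 4233 CPM in the knockout (-0.41), against -0.22, -0.22 and -0.08 in the other 3 classes. That place rests on 1 gene: without Cox6c the complex IV sum was 4336 and 3525 CPM (-0.30), less low than complex I (-0.33), while the ratios in the other 3 classes were -0.22, -0.22 and -0.06. Cox6c, a small membrane subunit, was the member that set ILC3-like cells apart. It stood at 1274 CPM in WT and 708 CPM in the knockout (4990 and 3162 UMIs; -0.85, -0.91 to -0.78). In ILC2-like cells it stood at 561 and 480 CPM (-0.23) and in ILC1/NK-like cells at 665 and 581 CPM (-0.19). WT ILC3-like cells were high for Cox6c among all classes of that library, which otherwise ranged from 173 CPM in B/plasma-like to 665 CPM in ILC1/NK-like cells, and the knockout ILC3-like level was close to that upper end.

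**Figure D3:**
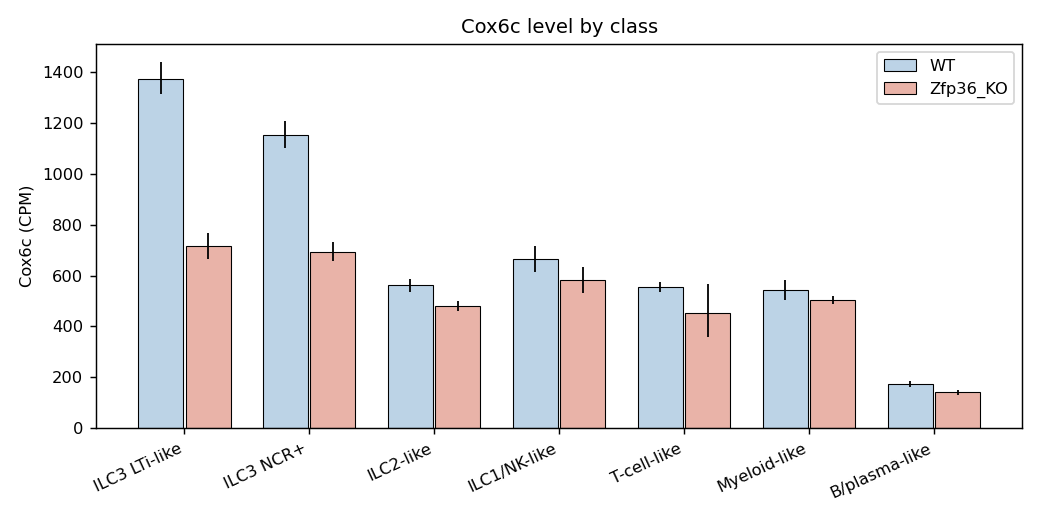
Cox6c level in CPM by class in WT and knockout; bars are the class level and lines its exact 95% Poisson interval, counting error only. WT LTi-like and NCR+ ILC3 cells stand at 1375 and 1154 CPM and the knockout cells at 714 and 693 CPM, while no other class exceeds 665 CPM.

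Both ILC3 subsets showed it: LTi-like cells (311 and 281) had 1375 and 714 CPM and NCR+ cells (303 and 401) had 1154 and 693 CPM. It was spread over cells, since a Cox6c UMI was found in 97.6% of the WT and in 89.6% of the knockout ILC3-like cells, and the median cell had 1138 and 634 CPM. Epithelial genes moved beside it: the 8-gene epithelial panel summed to 119 CPM in WT and to 9.63 CPM in knockout ILC3-like cells, and their part in the result was not tested. Without Cox6c the nuclear sum of ILC3-like cells gave -0.28 in place of -0.31.

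The other complex IV genes were nearer to each other. Cox8a stood at 820 and 596 CPM in ILC3-like (-0.46, -0.54 to -0.39), 734 and 633 CPM in ILC2-like (-0.21) and 1003 and 817 CPM in ILC1/NK-like cells (-0.30). Cox4i1, which carries the regulatory site for ATP, gave -0.34, -0.32 and -0.34, and Ndufa4, once assigned to complex I and now placed in complex IV, gave -0.29, -0.41 and -0.35. Cox5a and Cox5b, which sit on the matrix side, gave -0.17 and -0.26 in ILC3-like, -0.11 and -0.06 in ILC2-like and -0.06 and -0.05 in ILC1/NK-like cells. Ratios in ILC3-like cells were -0.17 for Cox6a1, -0.39 for Cox6b1, -0.35 for Cox7a2 and -0.20 for Cox7a2l, a factor that joins complexes III and IV.

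Tissue-restricted paralogs were nearly missing from ILC3-like and ILC2-like cells. The hypoxia-linked Cox4i2 had 0 UMIs in 829 and 1071 ILC3-like cells, for which the exact Poisson 95% upper bounds are 0.942 and 0.826 CPM, and 2 and 3 UMIs in ILC2-like cells. Ndufa4l2, another hypoxia-linked paralog, had 0 UMIs in ILC3-like and ILC2-like cells of either library, and the testis form Cox6b2 had 0 and 1 UMIs in ILC3-like and 2 and 3 in ILC2-like cells. The muscle form Cox7a1 had 17 and 24 UMIs in ILC3-like cells (4.34 and 5.38 CPM) and 4 and 0 in ILC2-like cells. In ILC1/NK-like cells Cox6a2, the other muscle form, had 12 UMIs in 4 of 180 WT cells (11.7 CPM, 6.02 to 20.4), 8 of them in 1 cell, and 0 in the knockout. Cox6a2 had 0 and 1 UMIs in ILC3-like and in ILC2-like cells, while the ubiquitous partners Cox4i1, Cox6a1, Cox6b1, Cox7a2 and Cox8a had 806 or more UMIs each in WT ILC3-like cells.

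Complex V was uneven among its own subunits. The F1 sector, which holds the catalytic sites, summed to 2009 and 1789 CPM in ILC3-like cells (-0.17), and the nuclear subunits of the membrane sector and stalk to 3343 and 2675 CPM (-0.32). Within F1 the catalytic beta subunit Atp5b stood at 326 and 238 CPM (-0.46, -0.58 to -0.34), whereas its partner alpha, Atp5a1, stood at 415 and 416 CPM (0.00, -0.09 to 0.10). The gamma subunit Atp5c1 was at 253.5 CPM in either library (0.00) and the delta subunit Atp5d at 311 and 318 CPM (0.03). The epsilon subunit Atp5e was lower, at 703 and 564 CPM (-0.32). Subunits that assemble in fixed proportion thus had unequal transcript ratios. Atp5b was lower also in ILC2-like (375 and 271 CPM, -0.47) and ILC1/NK-like cells (326 and 246 CPM, -0.41), where Atp5a1 gave -0.10 and -0.14.

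In the membrane sector and stalk, Atp5h (subunit d of the stalk) stood at 600 and 445 CPM in ILC3-like (-0.43), 548 and 410 CPM in ILC2-like (-0.42) and 586 and 419 CPM in ILC1/NK-like cells (-0.48). Atp5j2 (subunit f) gave 417 and 313 CPM (-0.41), 390 and 311 CPM (-0.33) and 391 and 300 CPM (-0.38). Atp5k (subunit e, which holds ATP synthase dimers together) gave 203 and 160 CPM (-0.34), 165 and 125 CPM (-0.41) and 218 and 169 CPM (-0.37). All 3 were lower in the knockout by like amounts in the 3 ILC classes, with wider intervals in ILC1/NK-like cells. The F1 subunit Atp5e stood at 843 and 701 CPM (-0.27) in ILC2-like and at 774 and 656 CPM (-0.24) in ILC1/NK-like cells. The 3 genes for the identical c-ring subunit, Atp5g1, Atp5g2 and Atp5g3, gave -0.29, -0.16 and -0.14 in ILC3-like and -0.16, 0.02 and -0.12 in ILC2-like cells; how the authors' counting divided reads between such near copies or their pseudogenes is not given in the sources used here.

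The mitochondrial genes did not share 1 ratio, although each strand of the mitochondrial genome is transcribed as a long precursor that is cut into messengers. Their complex V genes were lower in the knockout in the 3 ILC classes. The ATP synthase gene mt-Atp8 stood at 84.5 and 44.6 CPM in ILC3-like cells (-0.92, -1.18 to -0.66), 94.1 and 50.6 CPM in ILC2-like (-0.90), 69.0 and 30.0 CPM in ILC1/NK-like (-1.20) and 46.0 and 27.8 CPM in B/plasma-like cells (-0.73). Its overlapping partner mt-Atp6, the proton channel subunit, stood at 13275 and 11502 CPM (-0.21), 12574 and 11228 CPM (-0.16), 9970 and 8234 CPM (-0.28) and 5548 and 5724 CPM (0.05). As mt-Atp8 and mt-Atp6 lie on a shared transcript, their unequal ratios need not mean unequal messenger levels. How its 3 prime tags divide between them was not tested.

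The next gene on the same strand, mt-Co3 of complex IV, differed the other way, at 10275 and 13592 CPM in ILC3-like (0.40, 0.39 to 0.42), 9841 and 14264 CPM in ILC2-like (0.54), 7309 and 10056 CPM in ILC1/NK-like (0.46) and 5336 and 8318 CPM in B/plasma-like cells (0.64). mt-Co1, the catalytic subunit of complex IV, gave 0.33, 0.38, 0.26 and 0.59, whereas mt-Co2, which takes electrons from cytochrome c, gave -0.03, 0.08, -0.06 and 0.25. The single mitochondrial gene of complex III, mt-Cytb, gave -0.03, 0.01, 0.12 and 0.29. The 3 complex IV genes summed to 24469 and 29617 CPM in ILC3-like cells (0.28), while the nuclear subunits of the same complex had -0.41.

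Of the 7 complex I genes, mt-Nd6 had the highest ratio in ILC3-like cells, at 46.2 and 92.5 CPM (181 and 413 UMIs; 1.001, 0.75 to 1.26). It gave 0.97 in ILC2-like (35.4 and 69.5 CPM), 0.96 in ILC1/NK-like (37.9 and 73.9 CPM) and 0.63 in B/plasma-like cells (15.7 and 24.2 CPM). This gene alone among the 13 lies on the minus strand, and 14 of its bases face mt-Nd5, which gave 0.13, 0.27, -0.05 and 0.61. Use of the strand in counting is not stated in the sources used here, and whether any mt-Nd6 UMIs came from the opposite strand was not tested. mt-Nd4l stood at 255 and 414 CPM in ILC3-like cells (0.70) and mt-Nd4, with which it shares a messenger, at 3505 and 4490 CPM (0.36); in the other 3 classes the pair gave 0.42 and 0.42, 0.55 and 0.41, and 0.71 and 0.65. How 3 prime tags of that messenger divide between the pair was not tested either. mt-Nd1, mt-Nd2 and mt-Nd3 gave 0.12, -0.06 and 0.06 in ILC3-like and 0.25, 0.18 and 0.20 in ILC2-like cells.

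**Figure D4:**
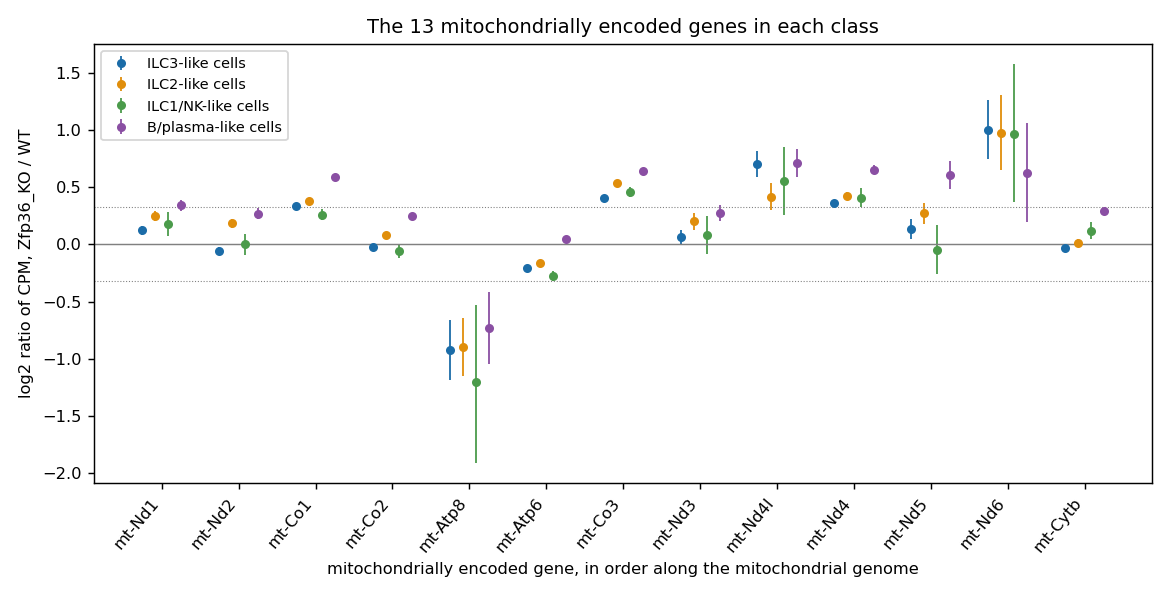
Log2 ratio of CPM, knockout over WT, for the 13 mitochondrial genes in genome order in 4 classes; lines are exact 95% intervals for counting error and dotted lines mark a ratio of 0.32 either way. mt-Atp8 lies lowest in all 4 classes and mt-Co3, which follows mt-Atp6, at 0.40 to 0.64, so the higher mitochondrial sum, whose direction turned to -0.05 and -0.03 on centring in ILC3-like and ILC1/NK-like cells, was not shared by all genes.

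Counted from a log2 ratio of 0.32 either way, 5 mitochondrial members were higher and 1 lower in ILC3-like cells, 5 and 1 in ILC2-like, 4 and 1 in ILC1/NK-like and 7 and 1 in B/plasma-like cells. With 34.9%, 36.3%, 34.3% and 43% of all genes higher, these shares are near the background. Centred on the class median, 2, 2, 2 and 6 were higher and 2, 2, 2 and 1 lower; against the centred shares of all genes, 2 of 13 (15.4%) was below and 6 of 13 (46.2%) above the background. At 1.5-fold 2, 1, 1 and 6 were higher, against 15.2%, 17%, 16.7% and 24.5% of all genes. The 10% limit on the mitochondrial share of a cell acts on these genes directly, and 180 WT and 126 knockout barcodes were over it. At a limit of 5% the mitochondrial sum gave -0.08 in ILC3-like and -0.01 in ILC2-like cells.

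Nuclear members have short transcripts, a property they share with another group that was lower in the knockout. Their median transcript length was 715 nucleotides, against 2103 for all genes tested in ILC3-like cells, and 69.3% against 19.6% were shorter than 1000 nucleotides. Among other genes, the median ratio in ILC3-like cells was 0.02 under 700 nucleotides, -0.01 from 700 to under 1000, 0.06 from 1000 to under 2000, 0.25 from 2000 to under 4000 and 0.40 at 4000 or more. The members gave -0.30, -0.34, -0.18 and -0.16 in the first 4 of these bins, which held 41, 20, 20 and 6 of them.

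**Figure D5:**
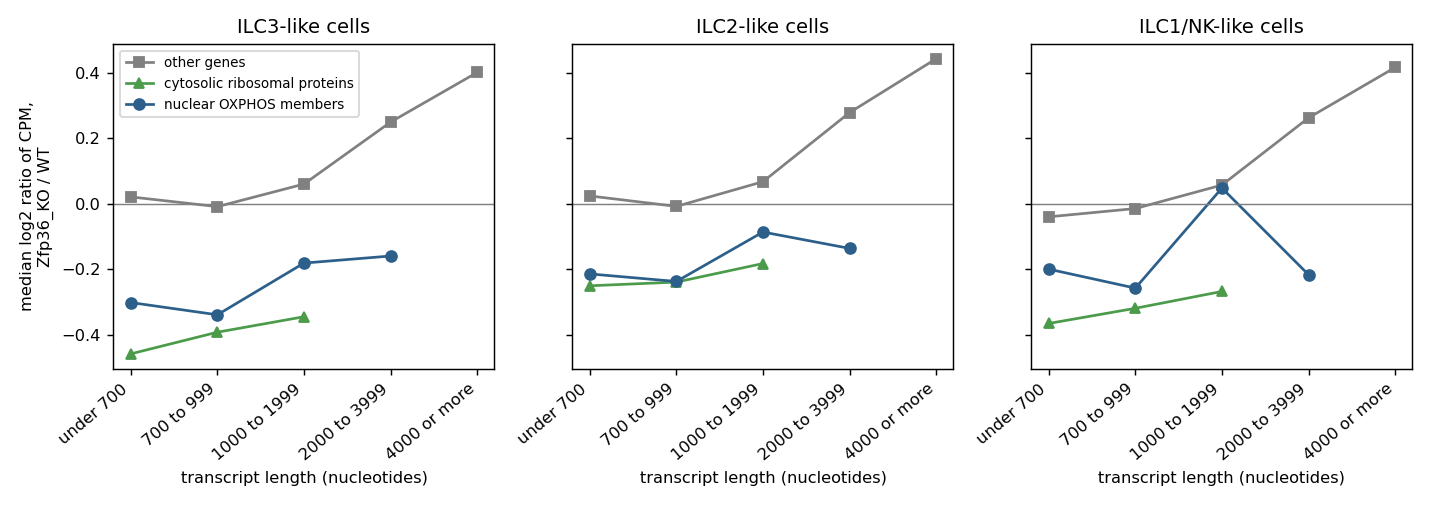
Median log2 ratio of CPM, knockout over WT, by transcript length for nuclear members, cytosolic ribosomal protein genes and all other genes in the 3 ILC classes. Other genes range from about 0 below 1000 nucleotides to 0.40 at 4000 or more in ILC3-like cells; nuclear members and ribosomal protein genes lie below them in each bin of ILC3-like and ILC2-like cells.

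Set beside genes of like length and level, under 1000 nucleotides and at 100 CPM or more, the 52 nuclear members in ILC3-like cells had a median of -0.33 with 96.2% below 0, and 396 other genes, cytosolic ribosomal protein genes left out, -0.06 with 56.1% below 0. With the ribosomal protein genes kept, 462 other genes had -0.13 with 62.3% below 0 there, and the medians were -0.11, -0.10 and -0.08 in ILC2-like, ILC1/NK-like and B/plasma-like cells. With ribosomal protein genes left out, the medians in ILC2-like cells were -0.23 for 46 members and -0.06 for 319 other genes, in ILC1/NK-like cells -0.20 for 45 and -0.05 for 359, and in B/plasma-like cells -0.11 for 25 and -0.00 for 120. Cytosolic ribosomal protein genes, likewise short and abundant, had medians of -0.40 in ILC3-like, -0.24 in ILC2-like, -0.33 in ILC1/NK-like and -0.13 in B/plasma-like cells. Past 0.32 on the low side were 60 of 84 tested in ILC3-like, 24 of 83 in ILC2-like and 42 of 83 in ILC1/NK-like cells. Of all genes, 12.3%, 10.1% and 13% were lower in these ILC classes. In B/plasma-like cells 9 of 83 were lower, close to the background of 11% of all genes. In each class 0 were higher. The part of transcript length, or of what the 2 groups share, in the result was not tested.

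The binding sequence of tristetraprolin was present in a smaller share of the members, whose UTRs were shorter, than of all genes. The heptamer TATTTAT was present in the longest annotated 3 prime UTR of 8 of 88 nuclear members tested in ILC3-like cells (9.09%), against 30.8% of 9161 genes, with a median UTR of 238.5 and 1193 bases. The 8 were Cox7a2, Ndufb8, Ndufs4, Ndufv2, Sdhaf2, Sdhaf3, Sdhc and Uqcrc2. Their median ratio was -0.27 and that of the other members -0.29, while over all genes it was 0.27 with and 0.12 without the heptamer. These values were not matched for length. Among genes outside the members and ribosomal protein genes, the median ratio was 0.02 under 700 nucleotides and 0.40 at 4000 or more. The part of the heptamer in the ratios was not tested.

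By the rule below, few members differed between the main ILC classes. ILC2-like was set against ILC3-like within each library, and a gene was counted when it was past 1.5-fold with an interval off 0 in both. By that rule 1 of 88 nuclear members was higher in ILC2-like cells and 3 lower, against 5.77% and 21.5% of 8724 genes. Of the 13 mitochondrial members, 0 met it in either direction. These CPM ratios were not centred. Over all genes the median log2 ratio of ILC2-like over ILC3-like cells was -0.35 in WT and -0.34 in the knockout. Over nuclear members it was -0.18 and -0.10, so the counts in each direction depend on the scale. Ndufa10, an accessory complex I subunit, was the higher one, at 137 CPM in ILC2-like and 86.3 CPM in ILC3-like cells of WT and at 159 and 96.1 CPM in the knockout (1.59- and 1.65-fold). Sdhaf1 was lower in ILC2-like cells (1.92- and 1.91-fold). The complex I assembly factor Ndufaf3 was lower too (29.5 against 58.0 CPM in WT and 27.5 against 48.6 CPM in the knockout). So was the complex I subunit Ndufs5 (122 against 219 CPM and 89.1 against 188 CPM). Cox6c had the largest WT difference of all members, 2.27-fold lower in ILC2-like cells, but missed the rule in the knockout at 1.48-fold.

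Ordered by the nuclear sum, the WT classes ran from ILC3-like (19636 CPM) through myeloid-like (18598), T-cell-like (18465), ILC1/NK-like (18294) and ILC2-like (17802) to B/plasma-like cells (7708), with overlapping intervals from myeloid-like to ILC1/NK-like. In the knockout the order was myeloid-like (18835), T-cell-like (17407), ILC1/NK-like (15918), ILC3-like (15843), ILC2-like (15500) and B/plasma-like (7207), and ILC1/NK-like and ILC3-like overlapped. On this scale ILC3-like cells headed the WT order and did not head the knockout order. The knockout T-cell-like value rests on 23 cells, and 7 of these had 3 or more Cox6a2 UMIs and belong to a set of 29 knockout cells without a Trac UMI. Without the 7 cells it was 16236 CPM (15478 to 17021), which overlaps ILC1/NK-like, ILC3-like and ILC2-like cells. The order also depends on the scale, since cytosolic ribosomal protein genes took 175225 CPM in WT ILC3-like and 299978 CPM in WT ILC2-like cells. With ribosomal protein and mitochondrial UMIs left out of the denominator, chosen for the order after seeing the data, ILC2-like cells headed the WT order at 27497 CPM, before ILC3-like at 25488 and T-cell-like cells at 25435 CPM. In the knockout ILC2-like cells then stood at 22599 CPM and ILC3-like cells at 19549 CPM.

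Other genes of the same organelle were read from lists fixed by name. Of the mitochondrial ribosome, 5 of 77 genes were past that limit on the high side and 21 on the low side in ILC3-like cells (median -0.17), with medians of -0.07, -0.14 and -0.06 in ILC2-like, ILC1/NK-like and B/plasma-like cells. Cytochrome c, coenzyme Q synthesis and assembly genes outside the naming rule had 3 of 48 higher and 13 lower (median -0.19; -0.09, -0.14 and -0.06). Protein import (Timm and Tomm genes) had 3 of 23 higher and 4 lower (-0.12; -0.09, -0.20 and 0.09). Cycs, cytochrome c itself, and Atpif1 were picked after their values were seen. Cycs stood at 121 and 121 CPM in ILC3-like cells (0.01, -0.17 to 0.19), and Atpif1, the inhibitor of ATP synthase, at 125 and 88.9 CPM (-0.49, -0.68 to -0.30).

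Pathways that feed the chain had medians near 0 in ILC3-like cells, below the 0.16 of all genes. The counts that follow stand beside 34.9% higher and 12.3% lower over all genes. The tricarboxylic acid cycle had 2 of 20 genes higher and 2 lower (0.05; 0.04, -0.02 and 0.19 in the other classes) and fatty acid oxidation 2 of 15 higher and 3 lower (0.05; 0.11, -0.19 and 0.06). Glycolysis had 4 of 17 higher and 2 lower (0.13; 0.08, 0.13 and 0.22). The regulators of mitochondrial gene expression had 5 of 18 higher and 4 lower (0.09; 0.16, 0.28 and 0.21). Of the factors named for the promoter motifs above, Yy1 stood at 162 and 232 CPM in ILC3-like cells (0.52, 0.38 to 0.66), Nrf1 at 36.5 and 44.6 CPM (0.29, -0.03 to 0.61) and Gabpa at 25.3 and 33.4 CPM (0.40, 0.02 to 0.78). The other 3 were singled out after their values were seen. Lrpprc, which stabilises mitochondrial messengers together with Slirp, stood at 24.3 and 47.5 CPM (0.97, 0.61 to 1.33), while Slirp stood at 44.7 and 34.5 CPM (-0.37, -0.70 to -0.05). Tfam, which packages and transcribes mitochondrial DNA, was at 56.9 and 68.3 CPM (0.26, 0.01 to 0.52).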

How the data were processed

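Single-cell 3 prime RNA libraries of sorted ILCs were analysed, 1 per genotype, each from 4 pooled mice. Per the file headers, the authors ran Cell Ranger 3.1.0; the submitters' processing notes name build mm10. The deposited values are raw counts of UMIs per gene and cell barcode, without normalization. The annotation release and any use of strand are not given in the sources used here.

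Barcodes under 500 genes or over 10% mitochondrial UMIs were removed (92 WT and 87 knockout, 180 and 126), and the limit acts on the mitochondrial members directly. Scrublet in scanpy 1.11.5 removed 39 WT and 5 knockout barcodes; at 0.142% the caller did not work in the knockout. Cells were gated by marker UMIs (3 or more, and at least 2 times those of the next panel). UMIs were summed per class and scaled to CPM with exact Poisson 95% intervals; log2 ratios have exact 95% intervals from the binomial split. Computation used numpy 2.4.6, pandas 2.3.3 and scipy 1.17.1, and was tested on simulated data. Genes needed 50 UMIs over both libraries in a class.

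Members and lists were chosen with earlier results of these data known. Named were the 13 mitochondrial genes, Sdh subunits, the 2 nuclear subunits with most UMIs in WT ILC3-like cells in complexes I, III, IV and V, paralog sets, members past a log2 ratio of 0.32 with an interval off 0 in every compared class, and the 3 highest and lowest ratios per ILC class from 100 UMIs on; others are marked in the text. Lengths and UTRs came from GENCODE M21 and promoters from RefSeq. Alternatives covered filters, gates, denominator, centring, cell weight, depth, sex-linked UMIs, gene minimum and fold.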

Additional observations from a re-analysis of the deposited data

Results flagged for a closer look

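Cox6a2, the heart and muscle form of a complex IV subunit, gave a signal that lay in few cells, most of them outside the compared classes. In the knockout library 29 cells with 3 or more Cox6a2 UMIs held 445 of its 454 UMIs in kept cells (98.0%), and in the WT library 5 such cells held 93.8%. Their Cox6a2 level was 1416 and 785 CPM, against 0.334 and 0.211 CPM in all other kept cells. The minimum of 3 UMIs was chosen after the values were seen. Of the 29 knockout cells, 13 met no gate, 8 the myeloid, 7 the T-cell and 1 the B/plasma gate. Of the 5 WT cells, 2 met no gate and 1 each the myeloid, the B/plasma and the ILC1/NK gate. The ubiquitous form Cox6a1 stood at 156 CPM in these cells and 173 CPM in the others of the knockout library.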

How the results depend on the processing

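The quotient of mitochondrial over nuclear UMIs kept its sign under all settings for which it was computed, between 0.19 and 0.44 in ILC3-like, 0.17 and 0.42 in ILC2-like, 0.23 and 0.33 in ILC1/NK-like and 0.41 and 0.51 in B/plasma-like cells. It was not computed with equal weight per cell. The nuclear sum stayed below 0 in the ILC classes. A mitochondrial limit of 5%, which removes cells by the measured share itself, turned the mitochondrial sum in ILC3-like and ILC2-like cells to -0.075 and -0.0081 and gave 0.059 in ILC1/NK-like and 0.36 in B/plasma-like cells, with nuclear sums of -0.26 and -0.18 in ILC3-like and ILC2-like cells. A stricter gate turned the nuclear sum of B/plasma-like cells to 0.020 (the cause was not tested) and gave -0.18 in ILC2-like cells, mitochondrial sums of 0.071 and 0.53 in ILC1/NK-like and B/plasma-like cells, and 11 mitochondrial members higher in the latter. Leaving mitochondrial and ribosomal protein UMIs out of the denominator gave nuclear sums of -0.38, -0.28 and -0.28 and mitochondrial sums of 0.043, 0.13 and 0.039 in ILC3-like, ILC2-like and ILC1/NK-like cells, with 3 mitochondrial members higher in ILC3-like and 35 nuclear members lower in ILC2-like cells. Centring on the class median, for sums chosen after seeing the data, gave nuclear sums of -0.47, -0.37, -0.35 and -0.34 and mitochondrial sums of -0.045, 0.038, -0.029 and 0.14 in the 4 classes, with 61, 53, 42 and 52 nuclear members lower and 2 mitochondrial members higher in each ILC class. Equal weight per cell gave a mitochondrial sum of 0.22 in ILC2-like cells and -0.22 nuclear and 0.25 mitochondrial in B/plasma-like cells; thinning to 2000 UMIs gave 0.22, -0.21 and 0.27. Without cells with Y-linked UMIs the mitochondrial sum was 0.14 in ILC1/NK-like cells and the sums in B/plasma-like cells were -0.13 and 0.37. At 200 UMIs per gene 11 nuclear members were lower in ILC1/NK-like cells. At 1.5-fold 3, 1, 5 and 0 nuclear members were lower in the 4 classes, against 4.53%, 3.32%, 4.47% and 4.45% of all genes. Of the mitochondrial members 2, 1 and 1 were higher at that fold in the ILC classes, against 15.2%, 17% and 16.7% of all genes. Chosen after seeing the data, leaving out Cox6c gave -0.28 for the nuclear sum of ILC3-like cells, and leaving out mt-Atp8 and mt-Co3 gave mitochondrial sums of 0.041, 0.13, 0.027 and 0.31. Of 848 values of named members under 6 settings, 816 kept their sign. No paired analysis was possible because there is 1 library per genotype, and depth limits the ILC1/NK-like cells most, at 180 cells per library.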

Other observations

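The cells with 3 or more Cox6a2 UMIs shared further genes, read from a short list written after these cells had been noticed. Siglech, a surface lectin of plasmacytoid dendritic cells, stood at 1451 CPM in the 29 knockout and 806 CPM in the 5 WT cells, against 0.111 and 0.127 CPM in all other kept cells. Irf8 stood at 2826 and 1674 CPM against 79.2 and 66.2 CPM, Tcf4 at 1441 and 1023 CPM against 93.6 and 64.6 CPM, and Bcl11a at 522 and 289 CPM against 9.21 and 3.42 CPM. Trac had 0 UMIs in the knockout and 10 in the WT cells. No class was assigned to them as a set, because these genes were not among the marker panels. Those that met a gate stayed in the class of that gate.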
